A study of Mus musculus with 16 samples.

Results

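The genes described here encode the subunits, inducible variants, assembly chaperones and activators of the mouse proteasome. They were chosen by symbol, as every gene named Psma, Psmb, Psmc or Psmd followed by a number, or Psme1 to Psme4, which gave 43 of the 20436 genes listed for each library. The study measured cerebral cortex of mice at postnatal days 28 to 35, on the background FVB.129P2-/Pde6b+ Tyrc-ch //AntJ that all groups shared, in 4 genotypes: wild type (WT), an Fmr1 knockout (KO), a Cpeb1 KO and an Fmr1/Cpeb1 double KO. Fmr1 encodes FMRP, the RNA-binding protein lost in fragile X syndrome, and Cpeb1 encodes a protein that binds messenger RNAs and regulates their polyadenylation and translation. Each genotype had 2 RNA-seq libraries from rRNA-depleted cytoplasmic RNA and 2 libraries of ribosome footprints, the fragments that monosomes protect from RNase, made from the same cytoplasmic lysates. The labels do not say whether the 2 lysates of a genotype came from separate animals, nor how many animals each holds, so p-values measure the spread between these lysates. Bulk cortex holds many cell types, and fewer cells of a type cannot be told apart from less RNA per cell.

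The proteasome degrades proteins that carry ubiquitin chains. Its core particle is a barrel of rings of alpha subunits (Psma genes), which gate the entrance, and of beta subunits (Psmb genes), of which Psmb5, Psmb6 and Psmb7 carry the proteolytic sites. The regulatory particle has a base, with ATPases that unfold the substrate (Psmc genes) and the scaffold and ubiquitin-receptor subunits Psmd1, Psmd2 and Psmd4, and a lid, in which Psmd14 removes ubiquitin. Immune cells and cells exposed to interferon replace the catalytic subunits with Psmb8, Psmb9 and Psmb10, and Psme1 to Psme4 encode activators that can cap the core in place of the regulatory particle. In neurons, local protein degradation at synapses works beside the local translation that FMRP and CPEB1 regulate.

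The RNA-seq libraries held 5423919 to 10246479 counts and the footprint libraries 16239479 to 24973462. The proteasome genes took 0.5131 to 0.6376% of the RNA counts and 0.6618 to 0.7101% of the footprint counts. The targeted genes matched the labels: Fmr1 had 89 to 170 footprint counts in the 4 libraries labelled as lacking it and 2110 to 2552 in the other 4, and Cpeb1 had 124 to 184 against 673 to 888. Of the 43 genes, 40 had enough counts to be tested in RNA and 42 in footprints, and 40 in both. Psma8, a testis variant of an alpha subunit, was tested in neither assay, with 0 to 2 counts per RNA library and 0 to 4 per footprint library. Psmb9 (3 to 7 RNA counts) and Psmb11, a thymus variant (2 to 6 RNA counts), were tested in footprints alone. The spans of 11 of the 43 genes overlap that of another gene, among them Psma3, Psma4 and Psme4. Strand and exons were not considered, so whether reads are shared is not known and their values carry this uncertainty.

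The start regions of the 3 subunit genes whose RNA passed the test described further on are shown first, because proteasome genes are known to be induced together by transcription factors that bind antioxidant response elements. They are the 250 bases before the RefSeq start site (GRCm38.p6), 5′ to 3′ on the gene's strand, and capitals mark the letters TGANNNNGC, the core of that element, on either strand. The Psma3 window lies on the plus strand at chr12:70974373-70974622, that of Psma4 on the plus strand at chr9:54950609-54950858 and that of Psmc6 on the plus strand at chr14:45329574-45329823. The listed span of Psma3 begins upstream of its window, at chr12:70969283, so this window lies inside the gene. That of Psma4 begins within its window, at chr9:54950781.
Psma3: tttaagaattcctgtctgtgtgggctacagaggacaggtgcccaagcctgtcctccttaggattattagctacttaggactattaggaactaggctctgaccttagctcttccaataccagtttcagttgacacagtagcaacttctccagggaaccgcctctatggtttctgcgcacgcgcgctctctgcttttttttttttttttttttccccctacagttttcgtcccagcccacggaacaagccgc
Psma4: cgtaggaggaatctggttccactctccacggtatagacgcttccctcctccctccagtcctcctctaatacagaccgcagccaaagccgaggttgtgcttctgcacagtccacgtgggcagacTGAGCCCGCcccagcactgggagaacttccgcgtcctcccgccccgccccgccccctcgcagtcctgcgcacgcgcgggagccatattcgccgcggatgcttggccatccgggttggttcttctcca
Psmc6: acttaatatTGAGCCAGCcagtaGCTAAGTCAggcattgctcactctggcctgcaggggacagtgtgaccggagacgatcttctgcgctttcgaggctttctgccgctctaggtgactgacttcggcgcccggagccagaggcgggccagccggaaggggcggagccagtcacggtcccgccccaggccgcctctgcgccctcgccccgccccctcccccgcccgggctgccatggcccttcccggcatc

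In windows that run 50 bases further, past the start site, Psma3 held no TGANNNNGC match, Psma4 held 2 (first bases at -127 and 24) and Psmc6 held 2 (at -241 and -227). Windows were listed for 36 of the 43 genes (39 windows), and 23 of the windows, or 58.97%, held a match. The share was 41.34% for all 32851 windows of that length and 42.49% for the windows of genes tested in RNA. The stricter form TGACNNNGC was in 15.38% of the proteasome windows, 12.39% of all windows and 13.92% of the windows of genes tested in RNA. Each match to it is also a match to TGANNNNGC. CCAAT, the box bound by NF-Y, was in 35.9%, against 37.41% of all windows and 37.43% of those of genes tested in RNA. CCGGAAG, a core bound by ETS factors, was in 33.33% of the proteasome windows, 8.86% of all windows and 15.83% of the windows of genes tested in RNA. A match is a description of letters on either strand and not a binding site.

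In WT cortex the RNA levels of the core and regulatory subunits lay between 116.8 and 390.2 TPM, and those of the inducible subunits and activators lay below them. In footprints the activator Psme3 lay among the regulatory subunits. Levels between genes are given as the deposited TPM, a transcript's share of a library corrected for its length, as the mean of the 2 WT libraries. In RNA the alpha ring had a median of 251.1 TPM, from Psma1 at 196.7 to Psma2 at 272.4, and the beta ring a median of 337.5 TPM, from Psmb2 at 143.9 to Psmb1 at 390.2. The base ATPases had a median of 203.0 TPM (Psmc4 140.5, Psmc3 271.0), the other base subunits 205.8 TPM (Psmd1 151.7, Psmd2 290.3) and the lid 146.3 TPM (Psmd7 116.8, Psmd8 189.4). The chaperones that assemble the base, Psmd5, Psmd9 and Psmd10, which leave the finished particle, were lower, at 37.46 TPM for Psmd10 to 84.71 TPM for Psmd5.

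The plot of WT levels sets the footprints beside the RNA, with the rings again the highest. The footprint medians were 280.7 TPM in the alpha ring (Psma3 242.3, Psma6 389.7), 306.2 TPM in the beta ring (Psmb5 282.8, Psmb1 519.9), 202.1 TPM in the base ATPases (Psmc4 134.6, Psmc3 226.6), 169.8 TPM in the other base subunits (Psmd1 115.4, Psmd4 196.4) and 168.3 TPM in the lid (Psmd3 129.2, Psmd14 207.1). The 14 constitutive core subunits, which are present in equal numbers in the particle, had coefficients of variation among themselves of 27.54 and 28.88% in the 2 WT RNA libraries and of 22.40 and 23.16% in the 2 WT footprint libraries. For the 17 subunits of the regulatory particle the values were 27.63 and 28.74% in RNA and 18.16 and 18.49% in footprints. Both particles thus had the lower value in footprints in both WT lysates, which is a description with no test. Not all of their parts did: in replicate 1 the alpha ring was at 14.03% in RNA and 18.31% in footprints and the lid at 13.26 and 15.56%, and in replicate 2 they were at 17.28 and 16.97% and at 21.96 and 16.37%. Across 40 members, log2 TPM in RNA and footprints had a Pearson r of 0.929 and a Spearman rho of 0.847, over points that share their lysates and depth.

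**Figure D1:**
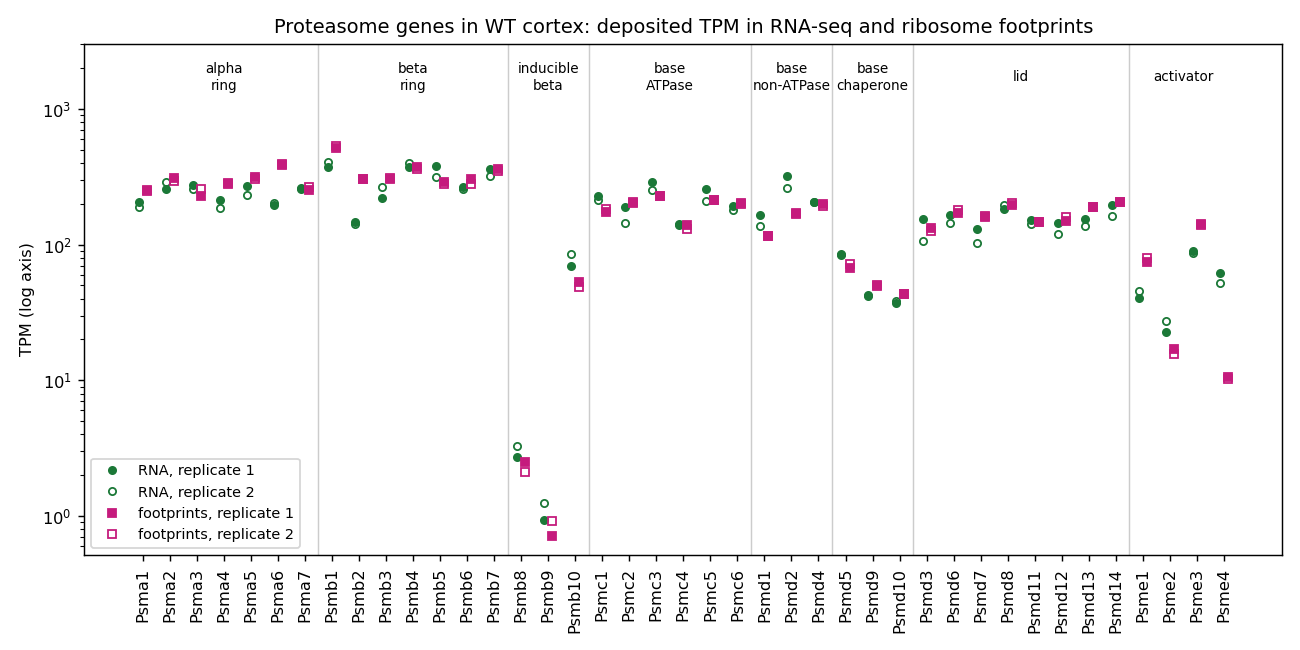
Deposited TPM (log axis) of the proteasome genes in the 2 WT RNA libraries (circles) and the 2 WT footprint libraries (squares), grouped by place in the particle; Psma8 and Psmb11 are left out. The core and regulatory subunits lie between 115.4 and 519.9 TPM as WT means, and Psmb8 and Psmb9 near 1 to 3 TPM.

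Of the inducible catalytic subunits, Psmb10 alone reached a level near that of the chaperones. Psmb8 stood at 3.015 TPM in WT RNA and 2.32 TPM in footprints, and Psmb9 at 1.095 and 0.82 TPM, on 5 to 19 and 3 to 7 counts per RNA library. Psmb10 stood at 77.63 TPM in RNA and 50.72 TPM in footprints. As a share of the summed TPM of an inducible subunit and the constitutive one it replaces, Psmb10 made up 16.25 to 23.7% in the 8 RNA libraries and 12.1 to 14.46% in the 8 footprint libraries. Psmb8 made up 0.427 to 1.044% of its pair in RNA and Psmb9 0.3133 to 0.6214%. In Fmr1 KO footprints Psmb8 was at 1.07 and 1.01 CPM (counts scaled to the library's size with TMM factors) and in WT at 1.80 and 1.52 CPM; the log2 difference of -0.66 ± 0.298 (SE) had an adjusted p of 0.955 in the edgeR test.

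Among the activators, Psme3, the nuclear homolog of the interferon-inducible pair Psme1 and Psme2, was highest in WT (88.44 TPM in RNA, 141.6 TPM in footprints). Psme2 had the lowest RNA level, 25.16 TPM, and Psme4, an activator that is a single large chain, the lowest footprint level, 10.37 TPM. Psme2b, a near copy of Psme2, had 0 to 6 counts per RNA library. How reads common to both genes were assigned was not examined, so their effect on the Psme2 values is not known.

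Footprints per RNA, the ratio of the deposited TPM in the 2 assays of a lysate, ranged over the members from Psmb2 to Psme4 and is given with 1 value per lysate. The members' median in WT was 1.068, against 0.6467 for the 13027 genes tested in both assays (5th to 95th percentile 0.1738 to 1.732). Psmb2, a beta-ring subunit without a proteolytic site, had the highest ratio: 2.08 and 2.17 in WT, 2.13 and 2.05 in Fmr1 KO, 2.02 and 2.04 in Cpeb1 KO and 2.16 and 2.19 in double KO. All 8 lysates of Psmb2 were above 2, and its WT mean lay at the 97.8th percentile of genes. Psma6, an alpha-ring subunit, followed with 1.73 to 2.04 over the 8 lysates.

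Psme4 stood at the other end. Its ratio was 0.171 and 0.197 in WT, 0.169 and 0.179 in Fmr1 KO, 0.189 and 0.187 in Cpeb1 KO and 0.122 and 0.221 in double KO. The 8 values lie below those of each other member in all 8 lysates, and the WT mean is at the 5.63rd percentile of genes; the 2 double KO lysates hold both the lowest and the highest. In WT, Psme4 had 61.3 and 51.9 TPM in RNA and 10.5 and 10.2 TPM in footprints. Psmd2, the base scaffold, was low among the regulatory subunits at 0.588 (0.5067 to 0.6424 over the 8 lysates). In 11 of the 40 members the ratio exceeded 1 in 8 of 8 lysates. The median SD of the log2 ratio over lysates was 0.1399 for the members and 0.215 for all genes. Ratios compare libraries normalised to their own totals, so 1 has no absolute meaning.

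**Figure D2:**
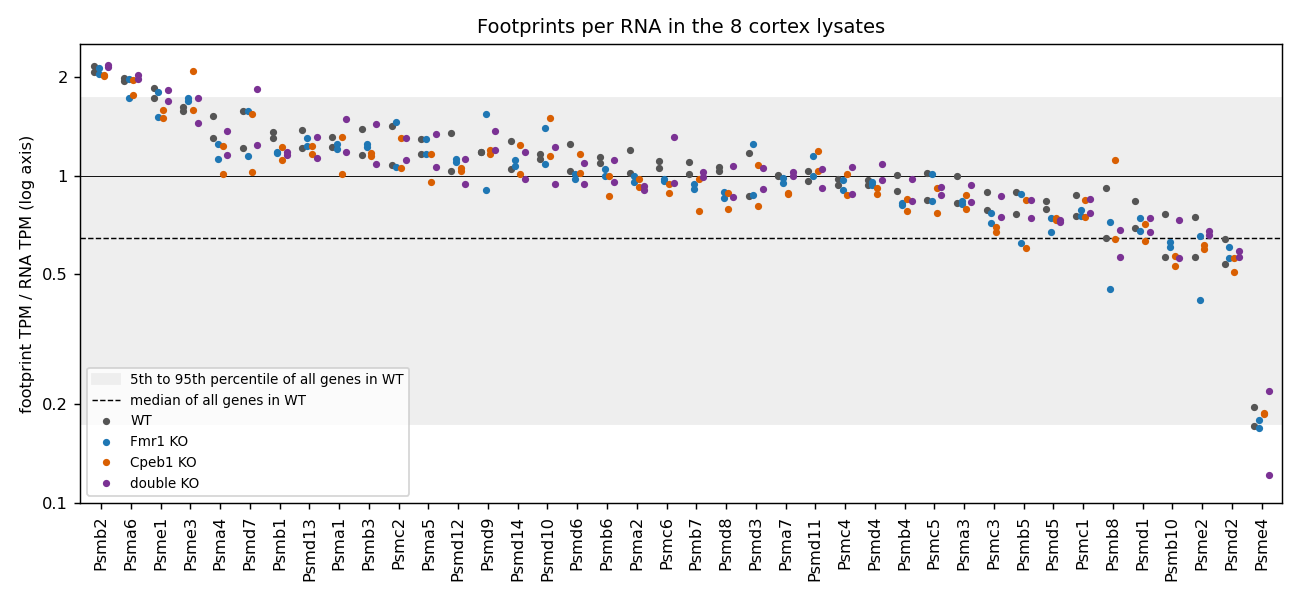
Footprint TPM divided by RNA TPM (log axis) for the 40 members tested in both assays, ordered by WT mean, with 1 point per lysate coloured by genotype; the dashed line is the WT median of all genes, 0.6467, and the band their 5th to 95th percentile. Psmb2 lies above 2 in all 8 lysates and Psme4 between 0.1216 and 0.2206.

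In RNA, most proteasome genes had higher values in each single KO than in WT, by differences too small to pass the test gene by gene. In the Fmr1 KO 36 of 40 members had positive log2 changes (54.1% of genes), with a median of 0.147 against 0.02 for all genes. There 0 passed edgeR's quasi-likelihood test at a Benjamini-Hochberg adjusted p of 0.05 (background 0.00753% of genes). At an unadjusted p of 0.05, 2 members passed (8.09% of genes), and DESeq2 called 0. Both numbered replicates were higher in 30 of 40 members, against 34.1% of genes. The core subunits were all positive, 14 of 14, with a median of 0.16, and 16 of 17 regulatory subunits were positive, with a median of 0.15. Psmb4, a beta-ring subunit, had the largest difference, 0.28 ± 0.126 (SE, adjusted p = 0.611), with Psmd8, a lid subunit, at 0.27 ± 0.131 (adjusted p = 0.612). The 2 lowest were Psme3 at -0.01 ± 0.150 (adjusted p = 0.988) and Psme4 at -0.04 ± 0.161 (adjusted p = 0.954). A correction for feature length gave a median of 0.09, over 1.5 times less.

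In the Cpeb1 KO 34 of 40 members were positive (53.7% of genes), with a median of 0.17 against 0.02 for all genes. There 0 passed the edgeR test (background 0.0%). At an unadjusted p of 0.05, 3 members passed (11.0% of genes), and DESeq2 called 0. Both replicates were higher in 31 of 40 members, against 31.6% of genes. Again 14 of 14 core subunits were positive, with a median of 0.20, and 16 of 17 regulatory subunits, with a median of 0.17, while the base chaperones had a median of -0.05. Psmd8 stood at 0.29 ± 0.132 (adjusted p = 0.46) and the ATPase Psmc3 at 0.28 ± 0.121 (adjusted p = 0.443). Psme3, at -0.09 ± 0.151 (adjusted p = 0.838), and the chaperone Psmd10, at -0.07 ± 0.190 (adjusted p = 0.912), were the lowest. Replicate 1 gave the larger difference: the members' median was 0.24 within replicate 1 and 0.09 within replicate 2.

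In the double KO the members' RNA lay on both sides of WT: 19 of 40 were positive (49.7% of genes), with a median of -0.01. There 0 passed the edgeR test (background 0.00753%), with 1 member at an unadjusted p of 0.05 (4.23% of genes) and 0 called by DESeq2. Psmc3 stood at 0.16 ± 0.121, the lid subunit Psmd13 at 0.15 ± 0.112, Psma6 at -0.26 ± 0.113 and Psme3 at -0.27 ± 0.153, each with an adjusted p of 0.966. These 3 comparisons share the WT libraries.

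**Figure D3:**
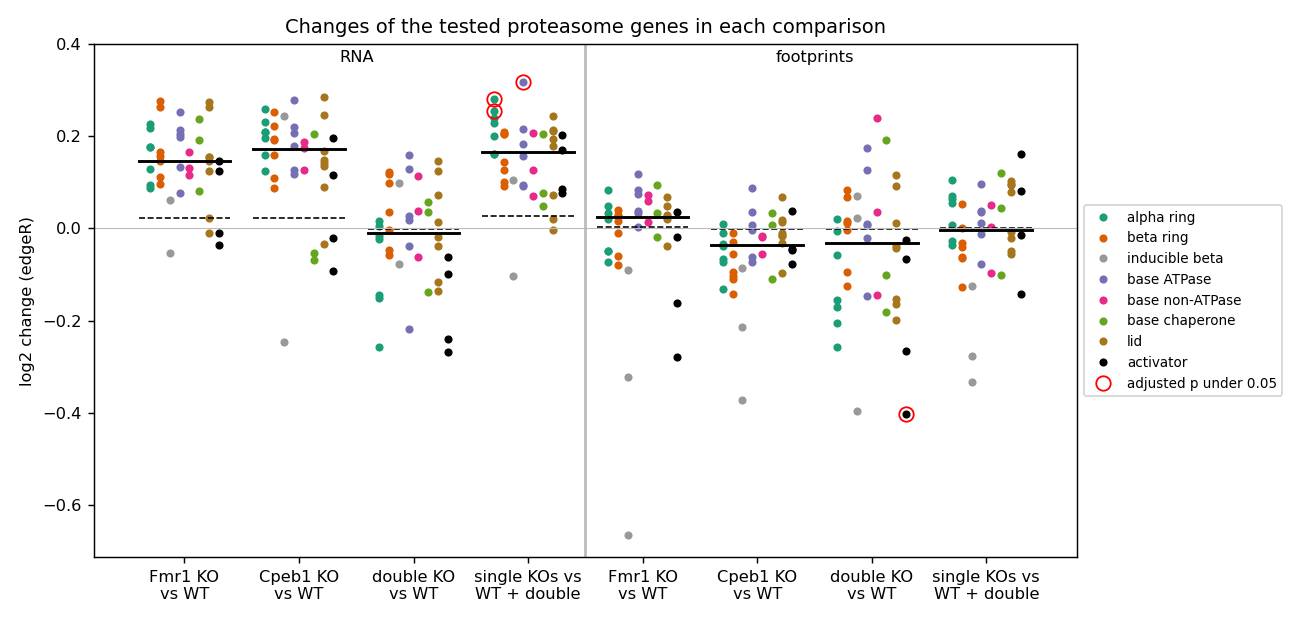
Log2 change of each tested member in 8 comparisons (4 in RNA, 4 in footprints), coloured by place in the particle; solid lines are the members' medians, dashed lines the medians of all genes tested, and red circles mark members past the adjusted p of 0.05. The RNA medians are 0.147 and 0.17 in the single KOs and -0.01 in the double KO.

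The authors also compared both single KOs, 4 libraries, with WT and the double KO, 4 libraries. In that comparison 38 of 40 members had higher RNA in the single KOs (54.7% of genes). Their median log2 difference was 0.17 against 0.03 for all genes, and 3 members rose past the edgeR threshold (background 7.31% of 13287 genes in either direction, 2.22% higher). At an unadjusted p of 0.05, 19 of 40 passed, against 25.7% of genes. All 14 core subunits were positive, with a median of 0.20, as were 16 of 17 regulatory subunits, with a median of 0.18. It pools the libraries of the comparisons above, so it is not independent of them.

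Psmc6, an ATPase of the base (NCBI gene 67089, GRCm38.p6 chr14:45329823-45349074), had 179.5 and 155.6 CPM in Fmr1 KO RNA, 185.2 and 154.1 in Cpeb1 KO, 149.8 and 140.6 in WT and 146.3 and 105.2 in double KO. The 4 single KO libraries lay above the other 4, and replicate 2 of the double KO was the lowest. The log2 difference was 0.32 ± 0.086 (SE, edgeR adjusted p = 0.0383). Psma4, the alpha-ring subunit whose tail helps to gate the core (chr9:54950781-54958034), had 128.1 and 112.8 CPM in Fmr1 KO, 134.9 and 112.1 in Cpeb1 KO, 109.8 and 96.2 in WT and 111.7 and 91.5 in double KO. The groups did not overlap, with a gap of under 1 CPM between the nearest libraries, and the log2 difference was 0.25 ± 0.071 (edgeR adjusted p = 0.0425).

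Psma3, another alpha-ring subunit (chr12:70969283-70995877), had 161.9 and 150.5 CPM in Fmr1 KO, 170.8 and 137.8 in Cpeb1 KO, 139.0 and 129.6 in WT and 132.0 and 110.4 in double KO. Its groups overlapped, since replicate 2 of the Cpeb1 KO lay below replicate 1 of WT, and the log2 difference was 0.28 ± 0.077 (edgeR adjusted p = 0.0395). In all, 7 of 40 members had every single KO library above every other library (6.04% of genes): Psma2, Psma4, Psma6, Psmb1, Psmb2, Psmc6 and Psmd5. In footprints 0 of 42 members did (1.92% of genes). Within replicate 1 alone both single KOs exceeded WT and double KO in 35 members (35.7% of genes), and within replicate 2 in 19 (21.3% of genes).

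The catalytic subunits did not pass: Psmb5 stood at 0.09 ± 0.087 (adjusted p = 0.531), Psmb6 at 0.14 ± 0.081 (adjusted p = 0.275) and Psmb7 at 0.21 ± 0.078 (adjusted p = 0.115) in the same edgeR test. The authors' deposited table for this comparison lists 5 members at an adjusted p under 0.05 (13.6% of its genes), Psma3, Psma4, Psmc6, Psmd1 and Psmd8, all higher in the single KOs.

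The 3 calls depended on which libraries were fitted. Without replicate 2 of WT, 6 members passed, without replicate 2 of the double KO 3, without replicate 2 of the Cpeb1 KO 1, and without replicate 1 of WT, of the Cpeb1 KO or of the double KO, or either Fmr1 KO replicate, 0. With DESeq2's size factors 1 passed, and 0 with a fit of the 4 genotypes, without the replicate number or with 10 counts asked in every library. In the fit of 4 genotypes the test of the interaction, which asks whether the double KO differs from the sum of the single KO changes, called 0 members (background 2.06%), with 17 at an unadjusted p of 0.05 (23.4% of genes), none of them higher. Its lowest adjusted p was 0.0656, for Psmc6 at -0.64 ± 0.169.

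Other measures also differed, and their part in these RNA differences was not tested. Across the 13287 genes tested, log2 feature length and the change in the pooled comparison had a Pearson r of -0.262 and a Spearman rho of -0.281, and the tested members' median feature of 829.5 nt was shorter than the 1436.76 nt of all genes. With the length correction 2 members passed and the median was 0.13. All 10 of 10 microglia markers were higher in the Fmr1 KO and in the Cpeb1 KO, 0 of them past the threshold, and their summed RNA level was 83.5 and 102.6 TPM in WT, 112.4 and 122.4 in Fmr1 KO, 150.5 and 95.6 in Cpeb1 KO and 92.4 and 110.4 in double KO, with no marker at 0. Of 6 astrocyte markers 5 were higher in each single KO, with medians of 0.33 and 0.30 and 0 past the threshold, and in the pooled comparison 5 were higher and Gja1 rose, at 0.38 ± 0.093 (edgeR adjusted p = 0.0264). Their summed RNA level was 1002.0 and 909.7 TPM in WT and 928.2 and 1175.0 in Fmr1 KO. It was 985.0 and 1033.0 in Cpeb1 KO and 1180.0 and 1103.0 in double KO, with no marker at 0. Both lists were also mostly higher than WT in double KO RNA. There 8 of 10 microglia markers (median 0.15) and 6 of 6 astrocyte markers (median 0.26) were higher, 0 past the threshold. Replicate numbers also differed: 15 of 40 members were lower in replicate 2 than in replicate 1 in all 4 genotypes (11.6% of genes), led by Psmd7, the lid partner of Psmd14, with log2 differences of -0.36, -0.67, -0.71 and -0.51.

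Genes that work with the proteasome were read from a list of 20 assembly and associated factors, of which 16 were found by symbol in these data. In the pooled comparison 12 of 16 were higher, with a median of 0.17, and 1 passed, Pomp, a chaperone of core assembly, at 0.39 ± 0.085 (edgeR adjusted p = 0.0179). Psmf1 was the lowest of the list, at -0.24. Nfe2l1, the transcription factor that induces proteasome genes when degradation is impaired, was at -0.07 ± 0.078 (edgeR adjusted p = 0.62). The ubiquitin receptor Adrm1 was at -0.20 ± 0.089 (adjusted p = 0.175). Of 15 ubiquitin and shuttle genes 7 were higher, with a median of -0.01, and 1 passed, the ubiquitin-activating enzyme Uba6, at 0.39 ± 0.093 (adjusted p = 0.0243). Of the MHC class I and interferon genes, 13 were tested, 8 were higher and 0 passed, with a median of 0.06.

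In footprints the members' medians in the single KOs lay near 0. In the Fmr1 KO 27 of 42 members were positive (51.4% of genes), with a median of 0.02. There 0 passed the edgeR test (background 0.0581%), with 1 at an unadjusted p of 0.05 (5.09% of genes) and 0 called by DESeq2. The ATPase Psmc4 was at 0.12 ± 0.079 and the base chaperone Psmd9 at 0.10 ± 0.096 (adjusted p = 0.983 each), Psme2 at -0.28 ± 0.140 (adjusted p = 0.955) and Psme4 at -0.16 ± 0.090 (adjusted p = 0.963). In the Cpeb1 KO 10 of 42 were positive (49.5% of genes), with a median of -0.04. There 0 passed (background 0.0799%), also at an unadjusted p of 0.05 (3.88% of genes) and by DESeq2. Psmc1 was at 0.09 ± 0.076, the lid subunit Psmd11 at 0.07 ± 0.074, Psmb7 at -0.14 ± 0.070 and Psma4 at -0.13 ± 0.071, each with an adjusted p of 1.0.

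In the pooled comparison of footprints 0 of 42 members passed (background 0.0%), 0 at an unadjusted p of 0.05 (6.95% of genes) and 0 by DESeq2, with a median of 0.00. The largest differences were Psme3 at 0.16 ± 0.079 (adjusted p = 0.718), Psmd10 at 0.12 ± 0.084 (adjusted p = 0.759), Psme2 at -0.14 ± 0.105 (adjusted p = 0.766) and Psmb5 at -0.13 ± 0.060 (adjusted p = 0.711). Of the members whose RNA passed, Psma4 had 180.3 and 178.8 footprint CPM in Fmr1 KO, 171.2 and 173.9 in Cpeb1 KO, 187.8 and 190.1 in WT and 175.1 and 164.4 in double KO. For Psma4, WT was the highest and the single KOs lay between WT and replicate 2 of the double KO. Psma3 footprints, in deposited TPM, were 254.3 and 238.9 in Fmr1 KO and 253.3 and 234.1 in Cpeb1 KO. They were 227.9 and 256.6 in WT and lowest in double KO, at 223.5 and 201.6. Psmc6 footprints were 212.3 and 187.2 TPM in Fmr1 KO and 197.9 and 182.3 in Cpeb1 KO. They were 201.7 and 198.9 TPM in WT and 183.4 and 173.5 in double KO.

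The footprint changes that passed were in the double KO and in activators. Against WT, Psme4 fell, the 1 member of 42 past the edgeR threshold (background 2.65%), and 8 passed at an unadjusted p of 0.05 (21.0% of genes). Against the Cpeb1 KO, Psme4 and Psme3 fell, 2 of 42 (background 5.6%), with 10 at an unadjusted p of 0.05 (24.6% of genes). Against the Fmr1 KO 0 passed (background 0.334%), with 9 at an unadjusted p of 0.05 (15.9% of genes) and 0 by DESeq2. The 3 comparisons share the double KO libraries, and each share of members called is near or below the share of genes called.

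Psme4 (chr11:30771775-30881150) had 38.9 and 43.9 footprint CPM in the double KO, 55.5 and 53.5 in WT, 45.8 and 51.8 in Fmr1 KO and 51.8 and 53.8 in Cpeb1 KO. Both double KO libraries were below the other 6. The log2 difference was -0.40 ± 0.091 from WT (edgeR adjusted p = 0.0409), -0.35 ± 0.091 from Cpeb1 KO (adjusted p = 0.0432) and -0.24 ± 0.092 from Fmr1 KO (adjusted p = 0.236). In RNA, Psme4 had 223.1 and 143.5 CPM in double KO and 233.0 and 197.0 in WT. Replicate 1 of the double KO lay between the WT libraries and replicate 2 below both.

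Psme3 (chr11:101316213-101323537) had 78.2 and 75.7 footprint CPM in the double KO, 93.4 and 91.5 in WT, 99.9 and 89.8 in Fmr1 KO and 98.0 and 91.9 in Cpeb1 KO. Here too both double KO libraries were below the other 6. The log2 difference was -0.30 ± 0.080 from Cpeb1 KO (edgeR adjusted p = 0.0468), -0.26 ± 0.080 from WT (adjusted p = 0.0915) and -0.30 ± 0.080 from Fmr1 KO (adjusted p = 0.116). Its RNA was 40.0 and 33.7 CPM in double KO, 45.4 and 43.4 in WT, 46.1 and 42.0 in Fmr1 KO and 37.4 and 46.2 in Cpeb1 KO.

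The other activators had no called change. Psme1 was at -0.07 ± 0.085 against WT (edgeR adjusted p = 0.701) and Psme2 at -0.03 ± 0.139 (adjusted p = 0.939). The ubiquitin receptor Psmd4 was the highest member against WT, at 0.24 ± 0.071 (adjusted p = 0.0865), with Psmd9 at 0.19 ± 0.096 (adjusted p = 0.277); against the Fmr1 KO, Psmd4 was at 0.17 ± 0.071 (adjusted p = 0.278) and Psme2 at 0.25 ± 0.143 (adjusted p = 0.415). The authors' deposited tables list Psma2, Psme3 and Psme4 lower and Psmd4 higher against WT (8.26% of genes listed), Psme3 and Psme4 lower and Psmc3 and Psmd4 higher against Cpeb1 KO (13.5%), and Psmd14 and Psme3 lower against Fmr1 KO (4.39%).

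**Figure D4:**
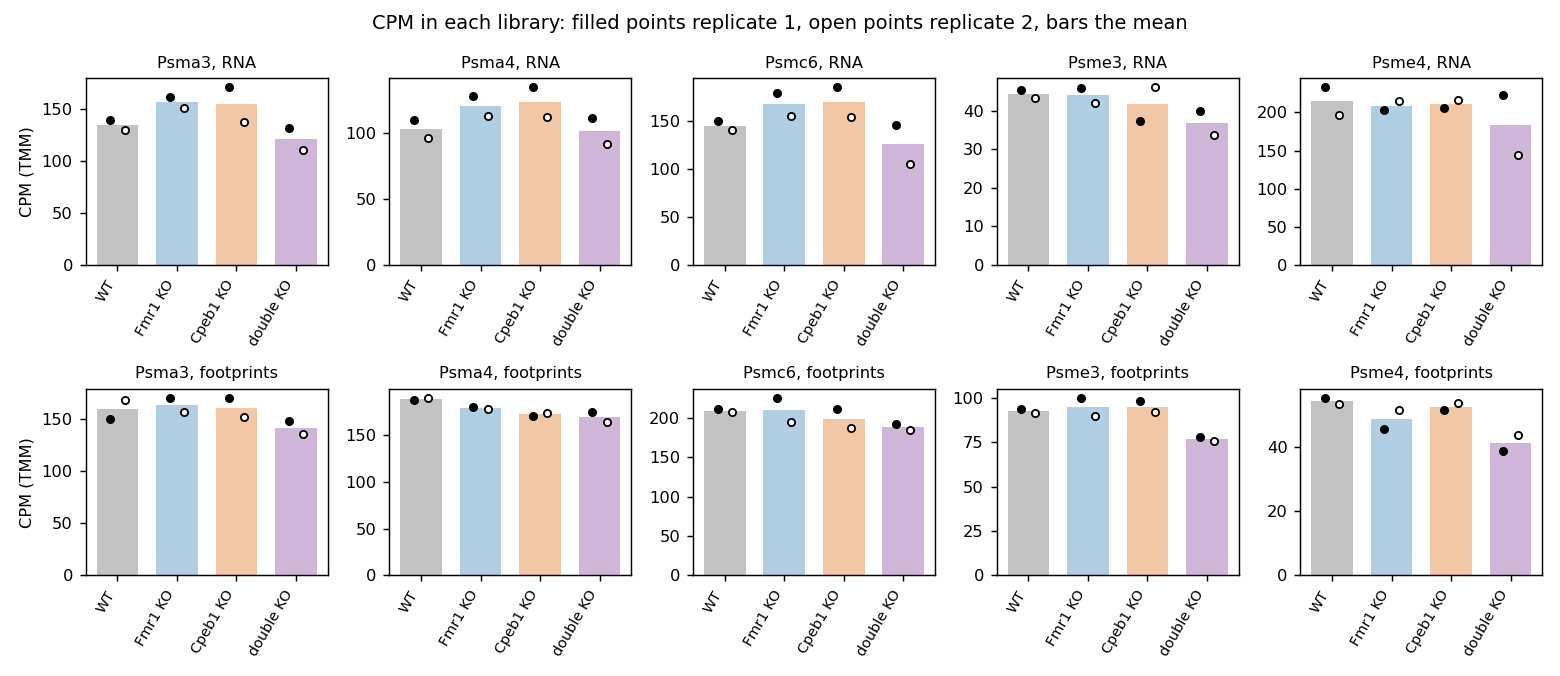
CPM in each library for the 5 members with a called change, RNA above and footprints below, with 2 points per genotype and bars at the mean, from 0. Psmc6 RNA is highest in the 4 single KO libraries, and Psme3 and Psme4 footprints are lowest in the 2 double KO libraries.

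These calls also depended on the libraries fitted. Against WT, 2 members passed without replicate 1 of WT, 1 without replicate 2 of WT and 0 without any of the other 6 libraries. Against the Cpeb1 KO, 4 passed without either WT replicate and 0 without any of the other 6. With only the 2 genotypes fitted the counts were 0 against WT, 4 against Cpeb1 KO and 1 against Fmr1 KO, and with the length correction 0 against WT. Markers of glia moved in the same footprint libraries, and their part was not tested: 1 of 10 microglia markers was higher in double KO than in WT, P2ry12 fell, and the summed level was 45.3 and 66.9 TPM in double KO and 71.4 to 96.4 in the other 6 libraries, with no marker at 0. Of 6 astrocyte markers Slc1a3 and Gja1 fell, with sums of 784.8 and 871.3 TPM in double KO and 884.0 to 1035.0 in the other 6.

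Translational efficiency, the change in footprints relative to the change in RNA, was lower for most members in the single KOs without passing the test. These values include the RNA changes given above and are not independent of them. In the Fmr1 KO 37 of 40 were negative, with a median log2 change of -0.11 against 0.0006 for all genes, 50.1% of which were positive. There 0 passed (edgeR, background 0.0154%), also at an unadjusted p of 0.05 (6.99% of genes) and by DESeq2. In the Cpeb1 KO 36 of 40 were negative, with a median of -0.17 against 0.003 for all genes, 50.4% of which were positive. There 0 passed (background 0.0%), with 4 at an unadjusted p of 0.05 (8.35% of genes) and 0 by DESeq2. Without replicate 1 of Cpeb1 KO RNA the members' median was -0.09, and without replicate 2 it was -0.26. In the double KO 30 of 40 were negative, with a median of -0.04 against -0.01 for all genes, 47.6% of which were positive. There 0 passed (background 0.00768%), also at an unadjusted p of 0.05 (3.14% of genes) and by DESeq2. The sign of the members' median was not stable. It was 0.004 within replicate 1 and -0.09 within replicate 2, and -0.07 to 0.01 with 1 library left out. The pooled comparison gave 36 of 40 negative and a median of -0.12, against 0.01 for all genes, 51.8% of which were positive. Past the threshold there were 0 (background 0.115%), with 6 at an unadjusted p of 0.05 (12.5% of genes) and 0 by DESeq2.

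Psmd8 was among the 2 lowest members in each single KO, at -0.29 ± 0.154 in Fmr1 KO (edgeR adjusted p = 0.749) and -0.36 ± 0.154 in Cpeb1 KO (adjusted p = 0.579). Its RNA was 130.2 and 137.7 CPM in WT, 167.7 and 155.8 in Fmr1 KO, 170.5 and 155.3 in Cpeb1 KO and 124.7 and 157.5 in double KO. Its footprints were 185.1 and 188.5 CPM in WT, 191.4 and 172.7 in Fmr1 KO, 172.7 and 176.6 in Cpeb1 KO and 183.5 and 180.2 in double KO. All 4 single KO libraries were above both WT libraries in RNA, and in footprints all but replicate 1 of the Fmr1 KO were below both.

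The other low values were Psme2 at -0.38 ± 0.249 in Fmr1 KO (adjusted p = 0.827) and Psma4 at -0.37 ± 0.141 in Cpeb1 KO (adjusted p = 0.523). Psmd11 and Psme3 were the highest in both single KOs, at 0.08 ± 0.139 and 0.07 ± 0.169 in Fmr1 KO and 0.12 ± 0.139 and 0.15 ± 0.170 in Cpeb1 KO. In the double KO Psma2 was lowest, at -0.26 ± 0.137, before the lid subunit Psmd12 at -0.20 ± 0.144, and Psmd7 and Psmd9 were highest, both at 0.13. In the authors' deposited tables Psma4 and Psmd8 were lower in Cpeb1 KO (2.47% of genes listed), and no member was listed as changed in Fmr1 KO (2.96%) or double KO (0.152%).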

How the data were processed

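The deposited gene tables hold expected counts and TPM from RSEM for 8 RNA-seq and 8 footprint libraries; reads were handled with cutadapt, Bowtie2 and TopHat2 on mm10, per the submitters' processing notes, whose versions are not given in the sources used here. Feature lengths were nearly all multiples of 3 (99.64% of 15716 single-transcript genes), so they are coding lengths, and the footprint feature was 57 nt shorter. The authors' comparison tables hold log2 changes and p-values from DESeq2 and Xtail, per the series' design text. Expected counts were rounded and fitted with edgeR 4.0.16 (R 4.3.3): TMM scaling, filterByExpr with a minimum count of 10, the quasi-likelihood test with the replicate number as a block, all 8 libraries of an assay in 1 fit, and Benjamini-Hochberg adjustment over all genes tested. Translational efficiency was the interaction of assay and genotype over 16 libraries, for genes that passed the filter in both assays. CPM use TMM factors. The scripts were tested on simulated counts. Totals of 5423919 to 10246479 (RNA) and 16239479 to 24973462 (footprints) set the precision, and members with under 20 counts are imprecise. No 2 libraries held identical counts. DESeq2 1.42.0, other filters, scalings, designs, a feature-length correction and leaving out each library were the alternatives. The text names members past the threshold and, where there were fewer than 2, the 2 highest and 2 lowest averaging at least 50 counts, besides catalytic, inducible and activator genes. The members and gene lists were chosen with earlier results of these data known. Promoter windows (250 bases before to 50 after a start) are RefSeq's, GRCm38.p6.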

Additional observations from a re-analysis of the deposited data

How the results depend on the processing

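With all libraries, 92 counts of called members and 97 medians recomputed under another setting stayed within the limits set for a match. Another 10 counts and 7 medians moved. For a median change the limit was the SD of the medians within replicates 1 and 2. It was narrow for Fmr1 KO translational efficiency (medians -0.119 and -0.113) and wide for Cpeb1 KO RNA (0.240 and 0.092). The tally of medians is thus no measure of how stable they are. The members called in the pooled RNA comparison (3) became 1 with DESeq2 size factors and 0 with at least 10 counts in every library, no replicate block or a fit of 4 genotypes. In footprints, the count in double KO against WT (1) became 0 with no replicate block, the length correction or only 2 genotypes, against Cpeb1 KO (2) it became 0 with no replicate block and 4 with only 2 genotypes, and against Fmr1 KO (0) it became 1 with only 2 genotypes. The numbers were not shown to pair the lysates: deviations of same-numbered replicates correlated at -0.03 to 0.29 in RNA and -0.08 to 0.39 in footprints. The Fmr1 KO median was 0.0947 in RNA with the length correction, and in translational efficiency -0.11 with no filter, -0.12 with 10 counts in every library or 2 genotypes, -0.10 with no replicate block, the length correction or a lysate block. Psme4 RNA in Fmr1 KO turned to 0.0816 with the length correction. The cause of these differences was not tested, apart from fewer samples where genotypes were dropped. Leaving out 1 library at a time gave called members of 0 to 6 in pooled RNA and, in footprints, 0 to 2 for double KO against WT, 0 to 1 against Fmr1 KO and 0 to 4 against Cpeb1 KO. It gave medians of -0.0671 to 0.0313 for double KO RNA, -0.0128 to 0.0476 for Fmr1 KO footprints, -0.0695 to -0.0230 for double KO footprints against WT and -0.0675 to -0.0276 against Fmr1 KO, and in translational efficiency -0.15 to -0.0738 for Fmr1 KO and -0.26 to -0.0918 for Cpeb1 KO. Single members that changed sign were Psme3 (-0.0818 to 0.0537) and Psme4 (-0.21 to 0.13) in Fmr1 KO RNA, Psmd10 (-0.28 to 0.10) and Psme3 (-0.32 to 0.13) in Cpeb1 KO RNA, and Psmc3 (-0.00988 to 0.32) in double KO RNA. In footprints they were Psmc1 in Cpeb1 KO (-0.0126 to 0.19), Psme2 in double KO against WT (-0.11 to 0.0725), and Psme1 (-0.0406 to 0.0631) and Psme2 (-0.0310 to 0.0702) against Cpeb1 KO. In translational efficiency they were Psme3 in Cpeb1 KO (-0.0625 to 0.35), and Psmd7 (-0.0514 to 0.31) and Psmd9 (-0.0204 to 0.29) in double KO.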
